A study of Homo sapiens with 5 samples.

Results

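The genes described here are those of the lysosome together with MITF, TFEB and TFE3, the MiT-TFE transcription factors. They are 37 genes, 3 factors and 34 of the lysosome, and each was represented by its brightest probe set among those that map to that gene alone. A probe set was found for 36 of the 37, out of 19775 genes on the arrays, and GLB1 was not analysed here. The RNA, by its labels, came from C4-2B, a line of prostate cancer cells derived from LNCaP that metastasizes to bone, and was measured on 5 Affymetrix arrays, 1 for each condition. The conditions were 25 µM BR-DIM for 48 h, 25 µM BR-DIM for 6 h, 25 µM isoflavone for 72 h, 25 µM isoflavone for 6 h and a control with 0.1% DMSO. BR-DIM is a formulation of 3,3′-diindolylmethane, which forms from an indole of cruciferous vegetables, and the isoflavone is the soy mixture G2535, whose concentration is that of its genistein. Both compounds were dissolved in DMSO, and how long the control was cultured was not given in the sources used here. With 1 array per condition there was no measure of replicate spread, so no difference was tested and every value describes these arrays.

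Lysosomes are acidic organelles in which hydrolases such as the cathepsins break down protein, lipid and carbohydrate, and the V-ATPase pumps the protons that keep them acidic. Many of their genes carry the palindrome CACGTG, the core of the E-box that MiT-TFE factors bind, near their start sites. In fed cells the mTORC1 kinase keeps TFEB and TFE3 phosphorylated in the cytoplasm, so the mRNA level of a factor is only part of what sets its activity, and the arrays measured mRNA alone. MITF is best known from melanocytes and osteoclasts, and the study examined it in the prostate cancer cells as a gene linked to osteoclast differentiation.

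Arrays were alike in overall signal, with medians between 89.3 and 109.1 and between 48.4% and 52.6% of probe sets above 97.1, the median of all signals, which served as the floor. BR-DIM 48 h and isoflavone 6 h stood apart in the markers of prostate luminal epithelium. On each of these arrays, 11 of the 11 such markers that had a probe set were under the DMSO control by 2-fold or more, and their summed signals were 1946 with BR-DIM at 48 h and 14360 at 6 h, 16210 with isoflavone at 72 h and 1470 at 6 h, and 16700 in the control. Whether these 2 arrays carry the right labels could not be settled from the files, so values under their names are those of the arrays labelled so. What part the marker levels have in the lysosomal values was not tested. Markers of macrophages and osteoclasts, cells with strong MiT-TFE programmes, were near or under the floor, with 0 to 2 of 9 above it per array and summed signals between 343.5 and 532.1. Melanocyte markers had 0 to 2 of 5 above the floor and summed signals between 173.7 and 353.3. In a culture measured in bulk, fewer cells of a kind and less RNA per cell cannot be told apart.

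The E-box was looked for in the 250 bases before and 50 after each start site, in RefSeq promoters of GRCh38.p14, where 22 of the 33 lysosomal genes with a probe set had an entry. Those without one were CTSB, CTSK, CTSS, LAMP2, HEXA, NAGLU, PSAP, SGSH, ASAH1, ARSA and ATP6V1H. CACGTG, which reads the same on both strands, was in the window of 9 of the 22 with an entry (40.9%), against 10.9% of 15384 genes on the arrays and 7.26% of all 35116 promoters. The longer palindrome TCACGTGA, which contains it, was in 5 of the 22 (22.7%), in 1.66% of the genes on the arrays with an entry and in 0.98% of all promoters. CACGTG was in the window of 0 of the 3 factor genes. A match describes the letters and is not evidence of binding. The stretches printed here are those of 4 genes that BR-DIM 48 h placed at least 2-fold under the control, and of GAA, the single gene with the motif that was higher there. Each is written along its gene, 5′ to 3′, and ends before the start site, with CACGTG in capitals.
CTSA, chr20:45891278-45891330, plus strand: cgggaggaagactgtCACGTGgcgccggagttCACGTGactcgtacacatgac
CTSD, chr11:1763954-1763989, minus strand: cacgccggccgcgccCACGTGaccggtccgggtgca
MCOLN1, chr19:7522568-7522623, plus strand: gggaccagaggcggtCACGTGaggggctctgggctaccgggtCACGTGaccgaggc
ATP6V0D1, chr16:67481196-67481231, minus strand: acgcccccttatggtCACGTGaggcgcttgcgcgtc
GAA, chr17:80101490-80101570, plus strand: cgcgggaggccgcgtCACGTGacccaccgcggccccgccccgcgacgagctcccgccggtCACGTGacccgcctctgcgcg
CTSA, MCOLN1 and GAA each held 2 copies before the start site. CTSD and ATP6V0D1 held 1, which began 47 and 59 bases before it.

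The factors did not move together. MITF, by its brightest probe set, had signals of 382 with BR-DIM at 48 h and 735 at 6 h, 527 with isoflavone at 72 h and 425 at 6 h, and 809 in the DMSO control. By this probe set MITF was lower than the control on all 4 treated arrays, and 2.11-fold lower on BR-DIM 48 h (log2 ratio -1.08). A second MITF probe set gave 326, 604, 455 and 350 on the same treated arrays and 315 on the control, so that it was above the control on all 4, with log2 ratios of 0.051 on BR-DIM 48 h and 0.94 on BR-DIM 6 h. On these arrays the direction of MITF against the control therefore depended on the probe set. The paper tabulated the brightest of them, and also reported lower MITF by RT-PCR and Western blot with both compounds. Its RT-PCR was on cells treated for a time not among these arrays. Between treated arrays the probe sets gave like ratios: -0.94 and -0.89 for BR-DIM 48 h over 6 h, and 0.31 and 0.38 for isoflavone 72 h over 6 h. The third MITF probe set lay under the floor on every array.

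TFEB was dim, with signals of 175 with BR-DIM at 48 h and 105 at 6 h, 203 with isoflavone at 72 h and 145 at 6 h, and 104.5 in the DMSO control. Its ratios to the control were 0.75, 0.01, 0.96 and 0.47 on the log2 scale, highest on the 2 late arrays and short of 2-fold on all 4. A second TFEB probe set was above the floor on those late arrays alone, at 122 with BR-DIM and 159 with isoflavone. TFE3 had signals of 850 with BR-DIM at 48 h and 641 at 6 h, 851 with isoflavone at 72 h and 531 at 6 h, and 702.0 in the control. Its largest difference from the control was on isoflavone 6 h, at -0.40, and the late arrays of both compounds were higher than the early ones, by 0.41 for BR-DIM and 0.68 for isoflavone. A second TFE3 probe set was 0.89 higher on isoflavone 72 h than on the control and within 0.09 of it on the other treated arrays. Of the remaining TFE3 probe sets, 1 was above the floor on 2 arrays and 1 on none.

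**Figure D1:**
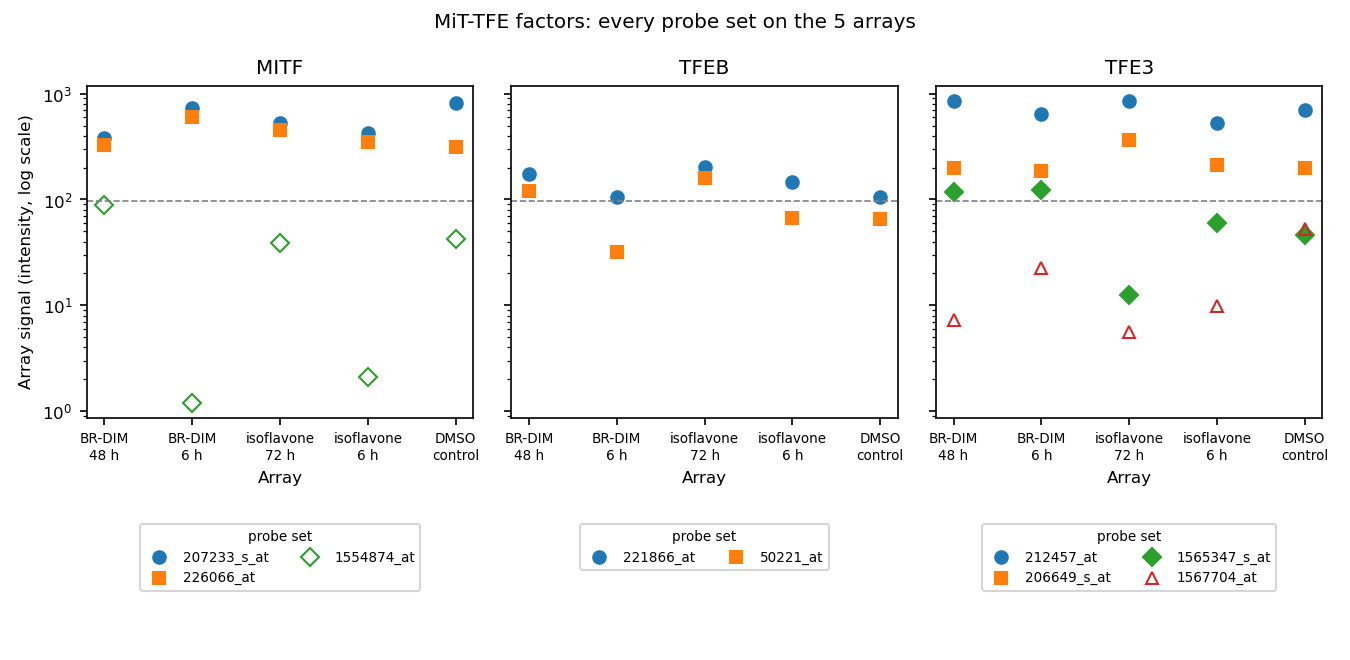
Signals (linear intensity, log axis) of every probe set of MITF, TFEB and TFE3 on the 5 arrays, 1 point per array; the dashed line is the floor of 97.1 and open points mark probe sets under it on every array. The brightest MITF probe set is lower on the 4 treated arrays (382 to 735) than on the DMSO control (809), while the next is at 326 to 604 on the treated arrays and 315 on the control.

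Lysosomal genes were well expressed, with 29 of 33 above the floor on all 5 arrays and 4 on some. CD63, a tetraspanin of late endosomes and lysosomes, and LAMP1, a glycoprotein of the lysosomal membrane, were the brightest, at 8937 to 13106 and 6910 to 9284. A gene counted as measured if either array of a comparison had it above the floor, and differences that reached 2-fold were counted. In any of 7 comparisons, 4 with the control and 3 between treated arrays, 8 of the 33 genes passed 2-fold by their brightest probe sets and 25 did not, where 21.9% of 14015 measured genes passed. Of those 25, 5 had a dimmer probe set that passed 2-fold in some comparison, ASAH1, GM2A, LAMP1, SGSH and ATP6V1H. The 4 comparisons with the control share that array and are not independent of one another.

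BR-DIM for 48 h gave the largest number of lower lysosomal genes. Of 32 measured, 0 were at least 2-fold higher, where 5.33% of all measured genes were, and 5 were at least 2-fold lower, where 3.87% of all genes were. The genes below the control numbered 18 and those above it 14, and their median log2 ratio was -0.14, against 0.06 for all genes. Against BR-DIM for 6 h, which leaves the control out, 0 of 32 were higher (1.83% of all genes) and 5 were lower (3.74%). Of the 32, 22 lay below and 10 above, and the median was -0.22, against -0.01 for all genes. A list of 10 housekeeping genes, GUSB among them, had medians of 0.19 over the control and -0.15 over BR-DIM 6 h. CTSA, CTSD, MCOLN1 and ATP6V0D1 were lower in both comparisons, ACP2 only against the control and ARSA only against BR-DIM 6 h. Both comparisons use the same BR-DIM 48 h array, so the second is not an independent check of the first.

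Other arrays had few lysosomal genes past 2-fold. BR-DIM for 6 h gave 1 of 32 higher than the control (2.86% of all genes) and 0 lower (0.806%), with a median of 0.11 against 0.07 for all genes. Isoflavone for 72 h gave 1 of 31 higher (4.8%) and 1 lower (2.06%), with a median of 0.02 against 0.05. Isoflavone for 6 h gave 0 of 31 higher (1.18%) and 0 lower (3.82%), with a median of 0.05 against 0.00. On that array the 11 luminal epithelial markers were all past 2-fold lower, and how they relate to the lysosomal values was not tested.

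Between treated arrays, isoflavone 72 h over 6 h had 1 of 31 lysosomal genes higher (7.77% of all genes) and 2 lower (1.89%). Of the 31, 19 were below and 12 above, with a median of -0.19 against 0.04 for all genes. The 10 housekeeping genes had a median of -0.21 there, with 6 below and 4 above, so a median this low was not particular to lysosomal genes. BR-DIM 6 h over isoflavone 6 h had 1 of 32 higher (7.01%) and 0 lower (1.12%), with a median of -0.03 against 0.06. ARSA was the gene higher in the last of these, NEU1 and CTSA were the 2 lower with isoflavone, and LAMP2 was the 1 higher.

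**Figure D2:**
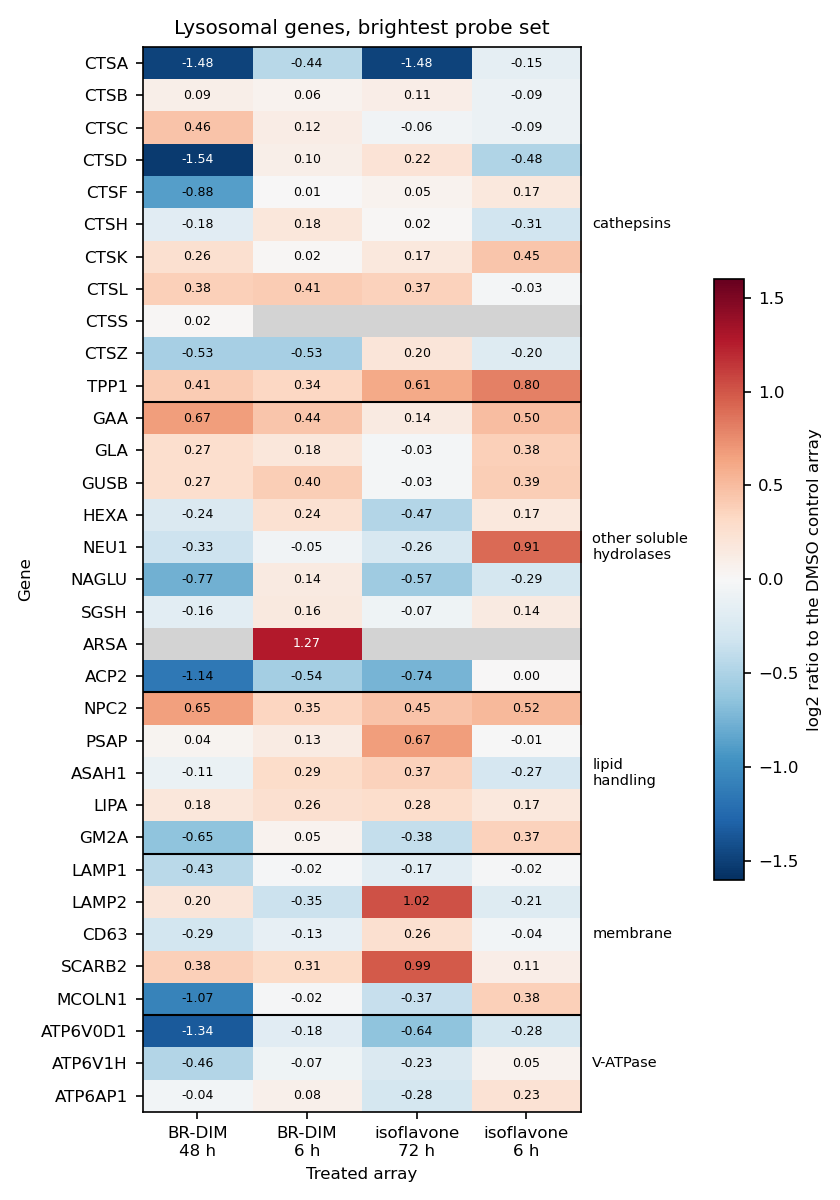
Log2 ratio of each treated array to the DMSO control for the 33 lysosomal genes by brightest probe set, grouped by role, with grey where a gene was under the floor on both arrays. BR-DIM 48 h holds 5 values at least 2-fold lower, from -1.07 for MCOLN1 to -1.54 for CTSD, and isoflavone 72 h holds 1, -1.48 for CTSA.

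The arrays were also put in order of signal, which needs no fold threshold. Among the 29 lysosomal genes above the floor everywhere, 11 had their lowest signal on BR-DIM 48 h (21.7% of 10552 such genes did), 1 on BR-DIM 6 h (13.6%), 5 on isoflavone 72 h (20.8%), 6 on isoflavone 6 h (23.1%) and 6 on the control (20.9%). The highest signal was on BR-DIM 48 h for 3 (24.8% of all such genes), on BR-DIM 6 h for 6 (15.9%), on isoflavone 72 h for 7 (21.3%), on isoflavone 6 h for 10 (21.6%) and on the control for 3 (16.4%). One of those 10 is ACP2, whose signal of 1049.6 on isoflavone 6 h equalled that on the control. As shares, 37.9% of the lysosomal genes were lowest on BR-DIM 48 h and 34.5% highest on isoflavone 6 h.

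None of the factors had the sign of the lysosomal median in all 7 comparisons. This decides little, because the comparisons share arrays and some of the medians lay close to 0. Examples were 0.02 on isoflavone 72 h over the control and -0.03 on BR-DIM 6 h over isoflavone 6 h. On BR-DIM 48 h over the control the brightest MITF probe set and the lysosomal median were both below 0, with TFEB and TFE3 above it. On isoflavone 6 h the same MITF probe set was at -0.93 and the lysosomal median at 0.05. No lysosomal gene passed 2-fold there, where 1.18% of all genes were higher and 3.82% lower. These 2 arrays differ in compound and in time, and whether the lysosomal genes depend on MITF was not tested. The second MITF probe set was above 0 on both arrays, at 0.051 and 0.15. On isoflavone 72 h over 6 h all 3 factors were higher, at 0.31 for MITF, 0.49 for TFEB and 0.68 for TFE3, while 19 of 31 lysosomal genes were lower.

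**Figure D3:**
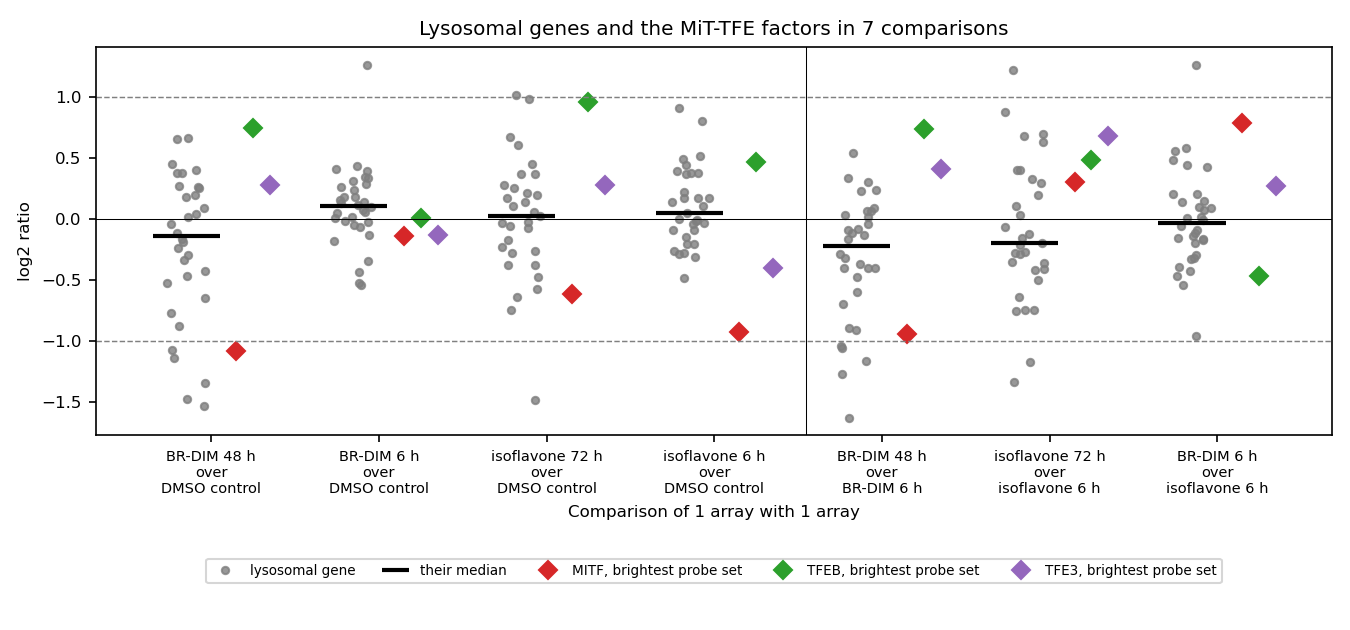
Log2 ratios in 7 comparisons of 1 array with 1 array, for each lysosomal gene (grey points), their median (black bar) and the brightest probe sets of MITF, TFEB and TFE3 (diamonds); dashed lines mark 2-fold. The lysosomal medians lie between -0.22 and 0.11, and MITF ranges from -1.08 to 0.79.

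Cathepsins, the proteases of the lysosome, were mixed. CTSA, a carboxypeptidase that also protects beta-galactosidase and neuraminidase, had signals of 553 with BR-DIM at 48 h and 1141 at 6 h, 553 with isoflavone at 72 h and 1398 at 6 h, and 1546 in the DMSO control. It was low on both late arrays, 2.79-fold lower than the control on BR-DIM 48 h and 2.80-fold lower on isoflavone 72 h. Among the 33 genes, by brightest probe sets, it alone passed 2-fold against the control on 2 arrays. Against the early array of the same compound it was 2.06-fold lower for BR-DIM and 2.53-fold lower for isoflavone. CTSD, the main aspartic protease of the lysosome, had 96.4 with BR-DIM at 48 h and 301 at 6 h, 327 with isoflavone at 72 h and 201 at 6 h, and 281 in the control. Its signal on BR-DIM 48 h was just under the floor, so it was at least 2.90-fold lower there than on the control and at least 3.10-fold lower than on BR-DIM 6 h. CTSF, a cysteine protease, was lowest on BR-DIM 48 h too, at 242 against 446 on the control (log2 ratio -0.88), with 449 to 502.5 on the other treated arrays.

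The remaining cathepsins differed among themselves on BR-DIM 48 h over the control. CTSZ was under the floor on BR-DIM 48 h, at -0.53 or lower, and CTSH was at -0.18. CTSH, an aminopeptidase and the brightest of them, lay between 2324 and 3259 on all arrays. By brightest probe sets CTSB had log2 ratios to the control between -0.09 and 0.11, and CTSC and CTSL were 0.46 and 0.38 higher on BR-DIM 48 h. The other CTSB probe sets ranged from -0.47 to 0.36 on that array. TPP1, a tripeptidyl peptidase, is not a cathepsin but was grouped with them here. By its brightest probe set TPP1 was higher than the control on all 4 treated arrays. Its signals were 1274 with BR-DIM at 48 h and 1214 at 6 h, 1467 with isoflavone at 72 h and 1677 at 6 h, and 961 in the control. Of its other probe sets, 1 was also higher on all 4 (0.31 to 0.62 on the log2 scale), and 1 was higher on none, at -0.21 for BR-DIM 48 h, 0.00 for BR-DIM 6 h, -0.85 for isoflavone 72 h and -0.04 for isoflavone 6 h. CTSK, the collagen-degrading cathepsin of osteoclasts, stayed close to the floor at 101.0 to 138, and CTSS and CTSZ were above it on 1 and 3 arrays. The median of the group, TPP1 included, on BR-DIM 48 h over the control was 0.02.

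Other soluble hydrolases were lower late than early with isoflavone in 8 of 8 measured by brightest probe set, with a median log2 ratio of -0.41, where 46.8% of all genes were lower and the median was 0.04. Dimmer probe sets of HEXA, SGSH and ARSA went the other way, at 0.44, 0.27 and 0.91. BR-DIM 48 h over 6 h had 7 of 9 lower (50.8% of all genes), with a median of -0.32 against -0.01. Over the control, isoflavone 6 h had 6 of 8 higher (50.3% of all genes), with a median of 0.27. Isoflavone 72 h had 7 of 8 lower than the control (45.7%), with a median of -0.17. NEU1, the lysosomal sialidase, had 488.5 with BR-DIM at 48 h and 594 at 6 h, 514 with isoflavone at 72 h and 1157 at 6 h, and 616 in the DMSO control. It stood high on isoflavone 6 h alone, so that isoflavone 72 h was 2.25-fold lower than 6 h but only 0.26 lower than the control on the log2 scale. ACP2, lysosomal acid phosphatase, had 476 with BR-DIM at 48 h and 722.5 at 6 h, 627 with isoflavone at 72 h and 1049.6 at 6 h, and 1049.6 in the control, and was 2.21-fold lower than the control on BR-DIM 48 h. NAGLU, which removes N-acetylglucosamine from heparan sulfate, was 0.77 lower on BR-DIM 48 h than on the control, at 286 against 488.

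ARSA, the sulfatase that degrades sulfatide, was above the floor on a single array, at 8.7 with BR-DIM at 48 h and 234 at 6 h, 53.0 with isoflavone at 72 h and 91.2 at 6 h, and 68.6 in the DMSO control. Its 3 calls, each at least 2.41-fold, all rest on that 1 signal, and its other probe set gave 0.22 for BR-DIM 6 h over the control. GAA, the acid alpha-glucosidase that degrades glycogen, was highest where CTSD was lowest, at 602 with BR-DIM at 48 h and 514 at 6 h, 417 with isoflavone at 72 h and 534 at 6 h, and 379 in the control. GUSB, beta-glucuronidase and the brightest of the group, lay between 3249 and 4364, and GLA, HEXA and SGSH had log2 ratios within 0.64 of 0 in all 7 comparisons by their brightest probe sets. A dimmer SGSH probe set gave 1.03 for BR-DIM 6 h over isoflavone 6 h (232 against 114).

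Lipid-handling genes had no member past 2-fold in any comparison by its brightest probe set. NPC2, which carries cholesterol out of the lysosome, was higher than the control on all 4 treated arrays, at 4694 with BR-DIM at 48 h and 3797 at 6 h, 4084 with isoflavone at 72 h and 4266 at 6 h, and 2982 in the control. PSAP, the precursor of the saposins, had 5018 with BR-DIM at 48 h and 5344 at 6 h, 7775 with isoflavone at 72 h and 4850 at 6 h, and 4871 in the control, and was high on isoflavone 72 h alone. GM2A, the activator of ganglioside breakdown, varied the most, with 1339, 2174, 1612 and 2709 on the treated arrays in the same order and 2094 on the control. On BR-DIM 48 h its 6 probe sets above the floor were all lower than the control, by 0.21 to 0.89, and 1 of the dimmer ones passed 2-fold for isoflavone 72 h over 6 h, at -1.22. ASAH1, acid ceramidase, and LIPA, acid lipase, stayed within 0.37 of the control by their brightest probe sets. A dimmer ASAH1 probe set had 527 with BR-DIM at 48 h and 1526 at 6 h, 1447 with isoflavone at 72 h and 769 at 6 h, and 1217 in the control. By it BR-DIM 48 h was past 2-fold lower than the control (-1.21) and than BR-DIM 6 h (-1.53), while its other 2 probe sets above the floor gave -0.34 and -0.06 over the control.

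Membrane genes split by array. LAMP2, a membrane glycoprotein needed for fusion with autophagosomes, had 1803 with BR-DIM at 48 h and 1234 at 6 h, 3193 with isoflavone at 72 h and 1363 at 6 h, and 1571 in the DMSO control. It was 2.03-fold higher on isoflavone 72 h than on the control and 2.34-fold higher than on isoflavone 6 h. Its other 3 probe sets had the same direction and were smaller, at 0.09, 0.39 and 0.63 against the control on the log2 scale. SCARB2, the receptor that carries beta-glucocerebrosidase to lysosomes, was also highest on isoflavone 72 h, with 6824 against 3444 on the control (0.99), although its other 3 probe sets gave 0.46, 0.28 and -0.22. MCOLN1, the TRPML1 calcium channel, had 207 with BR-DIM at 48 h and 430.1 at 6 h, 336 with isoflavone at 72 h and 565.5 at 6 h, and 435 in the control. It was 2.10-fold lower on BR-DIM 48 h than on the control and 2.08-fold lower than on BR-DIM 6 h. LAMP1 was 0.43 lower on BR-DIM 48 h by its brightest probe set, and CD63 0.29 lower. The other LAMP1 probe sets gave -0.79, -1.28 and, near the floor at 229 against 110, 1.06. The probe set at -1.28 was past 2-fold lower than the control on isoflavone 72 h as well, at -1.08.

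V-ATPase subunits were lower on both late arrays. ATP6V0D1, which couples the membrane ring to the central stalk, had 973 with BR-DIM at 48 h and 2181 at 6 h, 1582 with isoflavone at 72 h and 2030 at 6 h, and 2467 in the DMSO control. It was 2.54-fold lower on BR-DIM 48 h than on the control and 2.24-fold lower than on BR-DIM 6 h. ATP6V1H, a regulatory subunit, and ATP6AP1, an accessory subunit, were 0.46 and 0.04 lower on BR-DIM 48 h and 0.23 and 0.28 lower on isoflavone 72 h, so all 3 were below the control on both late arrays. A dimmer ATP6V1H probe set passed 2-fold for isoflavone 72 h over 6 h, at 105 against 226 (-1.10).

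Another 16 V-ATPase genes, listed with earlier results known, gave a larger set of the same complex. On BR-DIM 48 h over the control, 11 of 13 measured were lower and 3 passed 2-fold, ATP6V0E2 (748 against 1543), ATP6V0C (2787 against 5606) and ATP6V0B (3369 against 6740), which all belong to the membrane sector, and the median was -0.65. Of all genes 45.5% were lower there and 3.87% passed 2-fold, with a median of 0.06. The 3 lay just past the threshold, and the second probe set of ATP6V0C was just short of it, at -0.84. Genes outside the membrane sector were lower too, such as ATP6V1C1 (-0.74) and ATP6V1D (-0.65). The 2 that were higher were ATP6V0A2 of that sector (0.34) and ATP6V1A (0.21). These 4 were named after their values were seen. On isoflavone 72 h over the control 12 of 13 were lower (45.7% of all genes) and 0 passed 2-fold. The median there was -0.54, against 0.05 for all genes. BR-DIM 6 h also had most of them lower, 11 of 14 (42.8% of all genes), with a median of -0.19 against 0.07. Isoflavone 6 h had 6 of 13 lower (49.7%), with a median of 0.00 against 0.00. The isoflavone times also differed without the control, with 12 of 13 lower at 72 h than at 6 h (46.8% of all genes) and a median of -0.48.

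**Figure D4:**
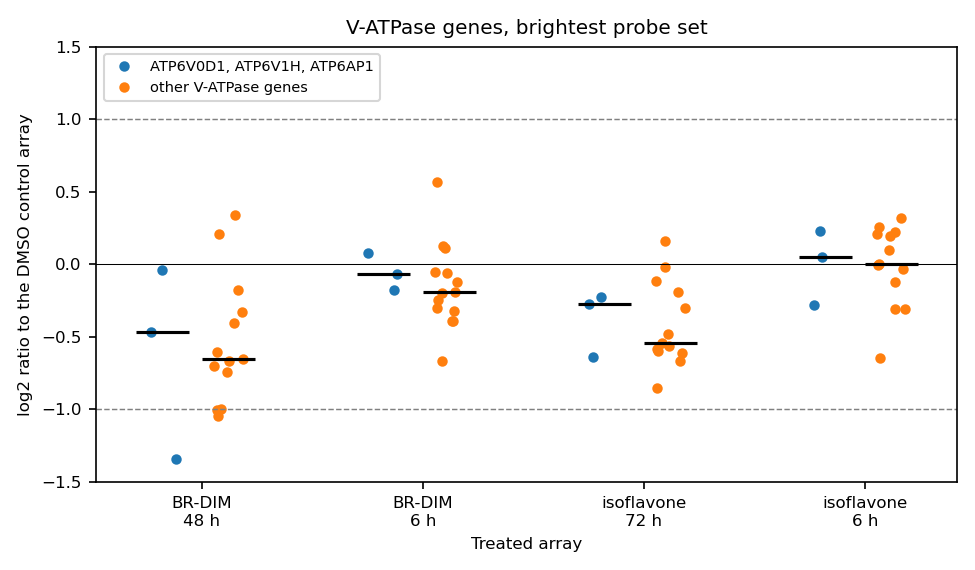
Log2 ratio of each treated array to the DMSO control for ATP6V0D1, ATP6V1H and ATP6AP1 (blue) and for other V-ATPase genes (orange); each point is a gene, bars are medians and dashed lines mark 2-fold. The orange medians are -0.65 for BR-DIM 48 h and -0.54 for isoflavone 72 h, against -0.19 and 0.00 on the 6 h arrays.

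Of the 5 lysosomal genes that 48 h of BR-DIM placed past 2-fold under the control, 4 had CACGTG in the promoter window. Of 9 with the motif 8 were lower than the control and 4 passed 2-fold, CTSA, CTSD, MCOLN1 and ATP6V0D1, with a median log2 ratio of -0.88. The other 4 that were lower were CTSF (-0.88), LAMP1 (-0.43), NEU1 (-0.33) and CD63 (-0.29), and GAA was 0.67 higher. Of 13 without the motif 5 were lower and 1 passed 2-fold, ACP2, with a median of 0.27. This split was noticed after the values were seen.

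The comparison with BR-DIM 6 h uses the same BR-DIM 48 h array and is not an independent check. In it genes with the motif had a median of -0.89 and 4 of 9 past 2-fold lower. Those without it had a median of -0.06 and 0 of 12. Of all genes, 4.47% with the motif and 3.42% without it were past 2-fold lower. On the other treated arrays over the control the medians with and without the motif were -0.02 and 0.18 for BR-DIM 6 h, -0.17 and 0.02 for isoflavone 72 h, and -0.02 and 0.17 for isoflavone 6 h. For isoflavone 72 h over 6 h they were -0.36, with 2 of 9 past 2-fold, and -0.06, with 0 of 13, and for BR-DIM 6 h over isoflavone 6 h they were -0.09 and -0.15. Over all genes the split on BR-DIM 48 h was small, with a median of -0.02, 51.1% lower and 5.68% at least 2-fold lower in 1337 genes with the motif, against 0.06, 45.2% and 3.45% in 9185 without. In another list of lysosomal genes, 5 of 5 with the motif were lower on BR-DIM 48 h than on the control, with a median of -0.60, and 9 of 19 without it, with a median of 0.04. In the V-ATPase list 3 of 3 with the motif and 5 of 6 without it were lower. On isoflavone 6 h, 5 of the 9 lysosomal genes with the motif were lower than the control and none passed 2-fold.

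**Figure D5:**
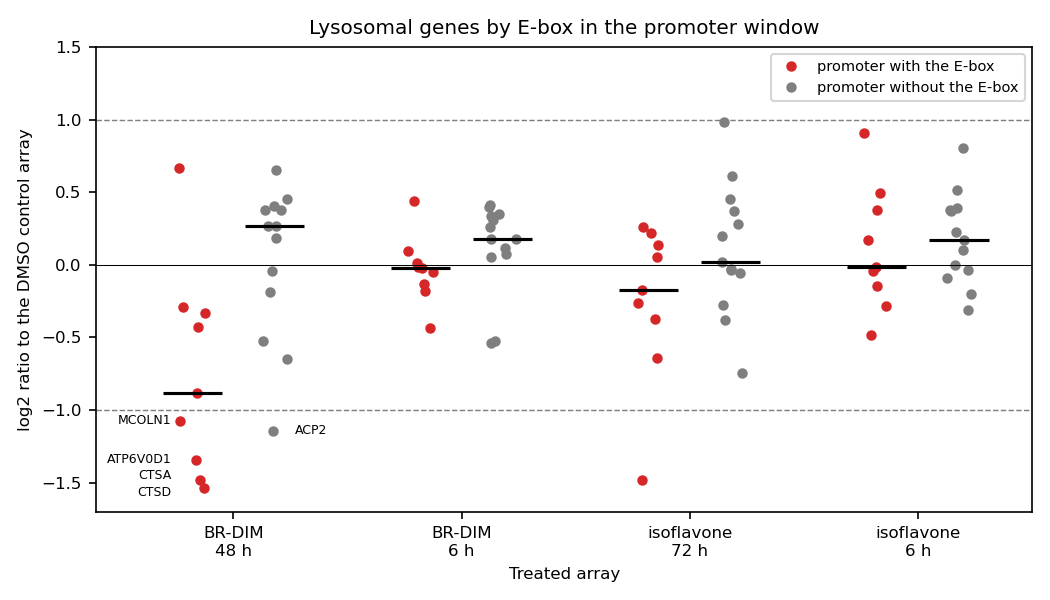
Log2 ratio of each treated array to the DMSO control for lysosomal genes with CACGTG in the promoter window (red) and without it (grey); each point is a gene, bars are medians and dashed lines mark 2-fold. On BR-DIM 48 h the medians are -0.88 and 0.27, and the 5 genes past 2-fold are named.

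Of 31 further lysosomal genes with a probe set, 3 passed 2-fold in some comparison with a mean signal of at least 4 times the floor. CTNS, CTSO, LAMP3, SMPD1 and TPCN2, named after their values were seen, passed it at lower mean signals. Without a signal limit, 21.9% of 14015 measured genes passed in some comparison. TPCN1, a calcium channel of the endolysosome, had 610 with BR-DIM at 48 h and 369 at 6 h, 656.5 with isoflavone at 72 h and 383 at 6 h, and 168 in the DMSO control, so it was at least 2-fold higher on all 4 treated arrays. Its other 2 probe sets, both dim, did not pass 2-fold, and the brighter of them went the other way on 3 of the 4, at -0.40 for BR-DIM 48 h, -0.90 for BR-DIM 6 h, -0.53 for isoflavone 72 h and 0.017 for isoflavone 6 h. NPC1, the membrane partner of NPC2 in cholesterol export, was higher on all 4 treated arrays as well, from 1698 to 3318 against 1087, and passed 2-fold on BR-DIM 48 h (1.61), while its other probe sets were dim and did not. CLCN7, the chloride and proton exchanger of the lysosome, had 203.5 on BR-DIM 48 h against 493 on the control (-1.28) and 505 to 549 on the other 3 treated arrays. On its 2 dimmer probe sets that ratio was -0.35 and 0.28.

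Genes that act on the factors or depend on them were counted in the same way. On BR-DIM 48 h over the control, 5.33% of all genes were at least 2-fold higher and 3.87% lower. On BR-DIM 6 h these shares were 2.86% and 0.806%. Of 17 measured mTORC1 and Rag genes, 0 passed 2-fold on BR-DIM 48 h over the control, and on BR-DIM 6 h 1 of 17 did, RPTOR, a scaffold of mTORC1 named after its value was seen, at -1.02. Among genes of mannose 6-phosphate sorting, which delivers hydrolases to lysosomes, 6 of 8 were lower on BR-DIM 48 h than on the control, with none past 2-fold and a median of -0.29, where 45.5% of all genes were lower and the median was 0.06. The receptor M6PR was at 945 on isoflavone 72 h against 1944 on isoflavone 6 h (-1.04). NAGPA, the uncovering enzyme that exposes the mannose 6-phosphate tag and was named after its values were seen, had 175 with BR-DIM at 48 h and 374 at 6 h, 120 with isoflavone at 72 h and 436 at 6 h, and 261 in the control. It was past 2-fold lower on both late arrays than on the early ones, with log2 ratios of -1.09 for BR-DIM and -1.86 for isoflavone, and on isoflavone 72 h than on the control (-1.12). Of the 8 MITF targets of melanocytes with a probe set 4 could be measured after 48 h of BR-DIM, with a median of -0.32 and none past 2-fold. GPNMB, a lysosomal glycoprotein of that list named after its values were seen, had 920 on isoflavone 72 h against 112 to 202 on the other treated arrays and 138.5 on the control (2.73). Of the MITF targets of osteoclasts, which include CTSK and CLCN7, 3 could be measured after 48 h of BR-DIM and CLCN7 alone passed 2-fold.

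Probe sets of 1 gene did not always give 1 direction. Among 12 lysosomal genes with at least 2 probe sets above the floor on all 5 arrays, all probe sets had the same direction in 5 to 8 of 12, depending on the comparison, and their median spread on the log2 scale was between 0.29 and 0.82. CTSA, CTSD, NEU1, ACP2, MCOLN1 and ATP6V0D1 each had 1 probe set, so their differences have no second probe set beside them.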

How the data were processed

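The authors prepared labelled cRNA from each sample, hybridised 1 array per condition, and made the deposited intensity values, 1 linear signal per probe set, with Affymetrix software (Microarray Suite, followed by MicroDB and the Data Mining Tool). The version, scaling target and detection calls are not given in the sources used here. Of 54613 probe sets, 41091 carry 1 gene symbol, and those with several or none listed were left out. Each of 19775 genes was represented by its brightest probe set over the 5 arrays. Signals under 97.1 were raised to that floor, log2 ratios were taken in 7 comparisons, and ratios in which 1 array was at the floor are bounds. Genes are named with their 5 signals if they passed 2-fold, or were the brightest or the most variable of their role. Members of other lists are named if past 2-fold with a mean signal of at least 4 times the floor. Those named after their values were seen are exceptions and are marked so. The members and lists were chosen with earlier results of these data known. The procedure was checked on simulated data. Promoters came from RefSeq, GRCh38.p14. Alternatives were quantile normalization, median ratio scaling, no floor, a higher floor of 471.7 (75th percentile of signals), the floor as a pseudocount, averaged probe sets, probe sets ending in _s_at or _x_at left out, and 1.5-fold and 3-fold rules. Python 3.11.15, numpy 2.4.6, pandas 2.3.3, scipy 1.17.1 and matplotlib 3.10.9 were used. With 1 array each, the number of arrays limits the precision.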

Additional observations from a re-analysis of the deposited data

How the results depend on the processing

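With 1 array per condition no value has a replicate check, and dim genes (TFEB, ARSA, CTSD on BR-DIM 48 h) rest on signals near the floor. No array was left out, and no paired analysis was possible because each condition has 1 array. The median of all lysosomal genes changed by less than 0.1 in 48 of 49 recomputed values, but that limit is larger than several of the medians. For BR-DIM 48 h over the control it went from -0.14 to -0.05 with the higher floor. Without probe sets ending in _s_at or _x_at it was -0.29 for the same comparison. MITF there turned to 0.051 with those left out, which leaves its second probe set. It fell short of 2-fold with the higher floor (-0.78), the pseudocount (-0.92) and averaged probe sets (-0.51) as well. On BR-DIM 6 h over the control, averaged probe sets gave 0.40 for MITF. On BR-DIM 48 h over the control, the 5 lower genes became 3 with the floor at the 75th percentile or as a pseudocount, 8 at 1.5-fold and 0 at 3-fold, and the 0 higher became 2 at 1.5-fold. Over BR-DIM 6 h, the 5 lower became 2 with the higher floor, 3 with the pseudocount, 9 at 1.5-fold and 1 at 3-fold, and the 0 higher became 1 with no floor. On BR-DIM 6 h, the 1 higher gene, ARSA, was lost (0) over the control and over isoflavone 6 h with the higher floor, the pseudocount, averaged probe sets and 3-fold, 1 was lower than the control with no floor, and 1 was lower than on isoflavone 6 h at 1.5-fold. On isoflavone 6 h over the control 2 were higher at 1.5-fold. On isoflavone 72 h over the control the 1 higher became 2 with quantile normalization, 0 with the pseudocount, averaged probe sets or 3-fold and 4 at 1.5-fold, and the 1 lower became 3 at 1.5-fold and 0 at 3-fold. Over isoflavone 6 h the 1 higher became 0 with averaged probe sets or 3-fold and 5 at 1.5-fold, and the 2 lower became 6 and 0 at those rules. The 1 gene lowest on BR-DIM 6 h became 2 with median ratio scaling, an alternative chosen after seeing the data for the array order. The medians by promoter motif were also recomputed after seeing the data. With CACGTG the median on BR-DIM 48 h over the control was -0.38 with the higher floor, which leaves 6 of the 9 genes, and -0.68 with the pseudocount, and over BR-DIM 6 h it was -0.34, -0.69 and, without probe sets ending in _s_at or _x_at, -0.61. Without CACGTG the median over the control was 0.093 with averaged probe sets. The medians of the V-ATPase list on the late arrays and of the soluble hydrolases for isoflavone 72 h over 6 h stayed below 0 under all 7 alternatives, with the smallest at -0.34. For the other changes the cause was not tested.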
